A study of Mus musculus with 2 samples.

Results

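The genes described here encode the hemidesmosome of basal epithelial cells and chains of its ligand laminin-332: Itga6, Itgb4, Itga3, Cd151, Col17a1, Dst, Plec, Lama3 and Lamb3. They were chosen by symbol, and all 9 have a row among the 17492 genes of the deposited single-cell count matrix of mouse corneal epithelium. Each was followed over the 7 epithelial cell type labels that the authors gave to their cells, in a control and a diabetic library. The animals were male C57BL/6J mice aged 20 weeks. The diabetic mice had received streptozotocin, a toxin of the pancreatic beta cell, once at 160 mg/kg, and had stayed above a blood glucose of 250 mg/dL for the 12 weeks of the study. The controls had received citrate buffer. Each library came from a pool of 4 corneas from 2 mice. The epithelium was lifted off with an enzyme, dissociated with trypsin and run on a droplet assay that counts unique molecular identifiers (UMIs) near the 3′ end of polyadenylated RNA, so a count does not tell the isoforms of a gene apart. Neither group has a replicate, so no test between them was run, and the intervals given below reflect the error of counting alone.

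Hemidesmosomes rivet the basal cell layer to the basement membrane. Integrin α6β4 binds laminin-332 outside the cell, and its long β4 tail holds plectin and the epithelial form of dystonin, which in turn catch keratin filaments. The cornea relies on these junctions to keep its epithelium in place, and the cell layers above the basal one have none.

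Among the receptors, Itga6 (chr2:71745616-71858416, plus strand, in build GRCm38) encodes the α6 subunit, which pairs with β4 in hemidesmosomes and with β1 elsewhere. Itgb4 (chr11:115974709-116008412, plus strand) encodes β4, whose only known partner is α6. Itga3 (chr11:95044474-95076801, minus strand) encodes the α subunit of a second laminin-332 receptor, α3β1, and Cd151 (chr7:141467392-141471473, plus strand) a tetraspanin that associates with both receptors. Col17a1 (chr19:47646344-47692094, minus strand) encodes collagen XVII, a transmembrane collagen of the hemidesmosome. The cytoplasmic plakins are encoded by Dst (chr1:33908225-34308661, plus strand), whose epithelial product is BPAG1, and by Plec (chr15:76170974-76232574, minus strand). Of the ligand, Lama3 encodes the α3 chain and Lamb3 (chr1:193207699-193343878, plus strand) the β3 chain.

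Promoter sequences from RefSeq (GRCm38.p6) were at hand for 5 of the 9 genes, as 9 entries of 300 bases that run from 250 bases before to 50 bases after a gene start. The 6 entries below show each of the 5 genes at 1 start, and Dst, which has widely spaced starts, at 2: Itga3 (chr11:95076665-95076964, minus strand), Col17a1 (chr19:47691993-47692292, minus strand), Dst with 2 starts (chr1:34011345-34011644 and chr1:34160010-34160309, plus strand), Lamb3 (chr1:193301744-193302043, plus strand) and Cd151 (chr7:141467112-141467411, plus strand). They are written 5′ to 3′ on the gene's strand in lower case. Capitals mark matches on either strand to 1 of 4 motifs. The AP-1 site was searched as TGANTCA. The TATA box was searched as TATAAA. The GC box was searched as GGGCGG. The p53 family half-site is given by name alone. No 2 matches overlapped in the entries shown.
Itga3: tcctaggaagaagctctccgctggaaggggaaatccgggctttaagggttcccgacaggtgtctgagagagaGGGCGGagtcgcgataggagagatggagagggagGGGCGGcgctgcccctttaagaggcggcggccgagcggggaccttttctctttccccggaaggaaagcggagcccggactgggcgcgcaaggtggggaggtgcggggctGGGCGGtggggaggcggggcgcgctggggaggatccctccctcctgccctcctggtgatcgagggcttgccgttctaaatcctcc
Col17a1: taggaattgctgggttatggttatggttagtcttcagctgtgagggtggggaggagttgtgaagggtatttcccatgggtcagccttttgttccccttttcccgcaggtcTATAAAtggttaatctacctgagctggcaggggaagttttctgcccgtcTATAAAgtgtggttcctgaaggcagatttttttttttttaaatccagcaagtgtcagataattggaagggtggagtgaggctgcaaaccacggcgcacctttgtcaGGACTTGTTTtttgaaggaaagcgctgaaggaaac
Dst, first start: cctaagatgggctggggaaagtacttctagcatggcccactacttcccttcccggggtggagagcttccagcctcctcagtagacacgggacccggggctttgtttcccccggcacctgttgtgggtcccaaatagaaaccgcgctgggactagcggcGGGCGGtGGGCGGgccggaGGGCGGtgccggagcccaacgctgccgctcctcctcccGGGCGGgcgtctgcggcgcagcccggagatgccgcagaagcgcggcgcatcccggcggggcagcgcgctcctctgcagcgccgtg
Dst, second start: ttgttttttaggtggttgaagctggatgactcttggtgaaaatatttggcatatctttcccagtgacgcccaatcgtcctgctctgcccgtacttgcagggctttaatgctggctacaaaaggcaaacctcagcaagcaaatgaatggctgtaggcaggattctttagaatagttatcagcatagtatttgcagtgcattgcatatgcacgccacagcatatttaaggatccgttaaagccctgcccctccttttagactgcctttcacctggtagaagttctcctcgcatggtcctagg
Lamb3: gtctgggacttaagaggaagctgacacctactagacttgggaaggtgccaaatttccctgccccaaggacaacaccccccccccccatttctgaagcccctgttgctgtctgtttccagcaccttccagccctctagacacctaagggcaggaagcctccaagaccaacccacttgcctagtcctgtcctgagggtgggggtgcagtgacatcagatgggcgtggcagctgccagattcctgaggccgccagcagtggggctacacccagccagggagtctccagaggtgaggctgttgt
Cd151: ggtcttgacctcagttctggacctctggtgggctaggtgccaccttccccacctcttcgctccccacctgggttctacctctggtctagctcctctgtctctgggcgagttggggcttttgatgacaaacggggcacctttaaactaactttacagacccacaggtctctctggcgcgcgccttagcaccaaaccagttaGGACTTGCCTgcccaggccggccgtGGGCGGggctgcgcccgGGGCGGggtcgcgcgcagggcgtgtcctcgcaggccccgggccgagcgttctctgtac
The Itga3 promoter had 24 CpG dinucleotides and 3 GC boxes. Col17a1 held 2 TATA boxes and 1 p53 family half-site, letters that 13.6% and 8.36% of all 32851 RefSeq promoters of this length hold at least once. The first Dst start had 4 GC boxes and 31 CpG, and the second start had 6 CpG and no match. Lamb3 had 2 CpG and no match, against a median of 7 CpG over all promoters. Cd151 had 20 CpG, 2 GC boxes and 1 half-site, and a GC box occurs in 35.7% of all promoters. The 3 entries not shown are second starts: that of Itga3 held the one AP-1 match among the 9 entries (7.81% of all promoters hold one) and 1 GC box, and those of Lamb3 and Cd151 held no match. A match is a run of letters, and no binding was measured.

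The control library held 9605 cells with a median of 16487 UMIs, and the diabetic library 8203 cells with a median of 17677. Medians per epithelial label ran from 9259.5 UMIs in control LSC to 24500 in diabetic TAC2, and label sizes from 202 cells (control LSC) to 2902 (control Wing). Wing took 30.2% of the control and 24.1% of the diabetic library, Basal 26.1% and 29.0%, and LSC 2.10% and 4.04%. What the labels LSC, Basal, TAC1, TAC2, Wing, Squam and Conj abbreviate, and how clusters were named, is not given in the sources used here. Of 5 textbook markers per label, 5 were highest in their own label in both libraries for TAC2 (proliferation genes), 4 for Squam and for Conj, 3 for TAC1, 2 for LSC (Gpha2 and Ifitm3) and for Wing, and 0 for Basal, so the name Basal rests here on the authors' annotation alone. The corneal keratin Krt12 stood at 21398 and 21165 CPM (counts of a gene per 1000000 counts of the same cells) in control and diabetic cells. The further label Immune has 26 and 10 cells and served only to gauge background. Barcodes shared by both libraries numbered 18.

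The genes fell into 3 patterns over the labels, the same in both libraries. Itgb4, Itga3 and Lamb3 were largely limited to LSC, Basal, TAC1 and TAC2, with at most 16.2% of their Basal level in Wing, Squam or Conj. Itga6, Cd151 and Plec stayed at 26.4% or more of their Basal level there. Col17a1, Dst and Lama3 declined in steps, with 24.9% to 51.3% of Basal in Wing and 5.43% to 11.7% in Squam. Because labels were drawn on clusters of these same cells, the levels across labels are a description without a test.

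Itgb4 had 118, 162, 173 and 128 CPM in control LSC, Basal, TAC1 and TAC2, against 13.6 in Wing, 9.15 in Squam and 5.76 in Conj. The diabetic values were 128, 147, 145 and 118 CPM, against 18.5, 5.49 and 7.98. The β4 subunit thus dropped to between 3.55% and 12.6% of its Basal level in the upper layers and in Conj, and its highest level was 30.1 times its lowest in control and 26.7 times in diabetic cells. The 4 lower labels lay close together: the Poisson intervals of TAC2 and LSC overlapped in both libraries, and those of Basal and TAC1 in the diabetic one.

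Its partner Itga6 followed it only in part. Itga6 stood at 198, 223, 216 and 178 CPM in control LSC, Basal, TAC1 and TAC2, and at 98.6 in Wing, 119 in Squam and 68.9 in Conj. Diabetic cells had 220.0, 234, 211 and 185 CPM, then 106, 84.6 and 73.1. Wing cells thus kept 44.2% of the control Basal level of Itga6 and 8.40% of that of Itgb4. The order of the upper layers was not the same in the libraries, with Squam above Wing in control and Wing above Squam in diabetic cells, and both gaps were larger than the counting intervals.

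Itga3, of the α3β1 receptor, had the profile of Itgb4. Its control values were 27.5, 54.8, 61.3 and 43.8 CPM in LSC, Basal, TAC1 and TAC2, and 5.33, 7.51 and 1.80 in Wing, Squam and Conj. The diabetic series read 41.9, 52.7, 53.6 and 36.0 CPM, then 7.60, 8.53 and 2.51. LSC was the label in which Itga3 was low among the lower 4 in control cells (50.3% of Basal), while in diabetic cells it was at 79.5% of Basal and overlapped TAC2. Cd151 was the flattest of the 9 genes, its highest label at 2.17 times (control) and 2.27 times (diabetic) its lowest. It was highest in LSC (99.1 and 82.5 CPM), lowest in Squam (45.6 and 36.4 CPM), and its neighbours in order between Basal and Wing had overlapping intervals in both libraries.

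Col17a1 peaked in TAC1 and Basal. Control cells had 628 CPM in LSC, 1281 in Basal, 1440.4 in TAC1 and 1059 in TAC2, then 319 in Wing, 102 in Squam and 60.5 in Conj. Diabetic cells had 649.9, 1387, 1414 and 1008 CPM, then 419, 77.2 and 71.1. LSC thus carried 49.1% of the Basal level in control and 46.9% in diabetic cells, and the step between them was beyond the counting intervals in both libraries.

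The plakins differed from collagen XVII in the LSC label. Dst was highest there, at 511 CPM in control and 492 in diabetic cells, and declined through Basal (375 and 398), TAC1 (320.1 and 331), TAC2 (260.1 and 296), Wing (137 and 204), Conj (62.6 and 80.4) and Squam (28.6 and 21.6). This order was the same in both libraries and no neighbours overlapped. Plec ranged less, from 254 CPM in control Basal to 91.6 in control Squam, and from 283 CPM in diabetic LSC to 65.2 in diabetic Squam. Wing kept 67.7% and 66.1% of the Basal level of Plec, against 36.4% and 51.3% of that of Dst.

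The laminin chains parted in the same label. Lamb3 was highest in LSC, with 56.0 CPM in control and 76.7 in diabetic cells, or 211% and 213% of the Basal level. It followed with 26.5 and 36.1 CPM in Basal, 25.6 and 30.0 in TAC1, and 21.9 and 24.8 in TAC2, and lay between 1.14 and 3.23 CPM in Wing, Squam and Conj. Lama3 (chr18:12333819-12583013, plus strand) was instead highest in Basal, at 57.9 and 58.2 CPM, with 40.4 and 37.4 in LSC, 55.0 and 45.9 in TAC1, 38.2 and 31.3 in TAC2, 15.6 and 20.5 in Wing, 6.59 and 6.83 in Squam, and 9.63 and 14.3 in Conj.

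**Figure D1:**
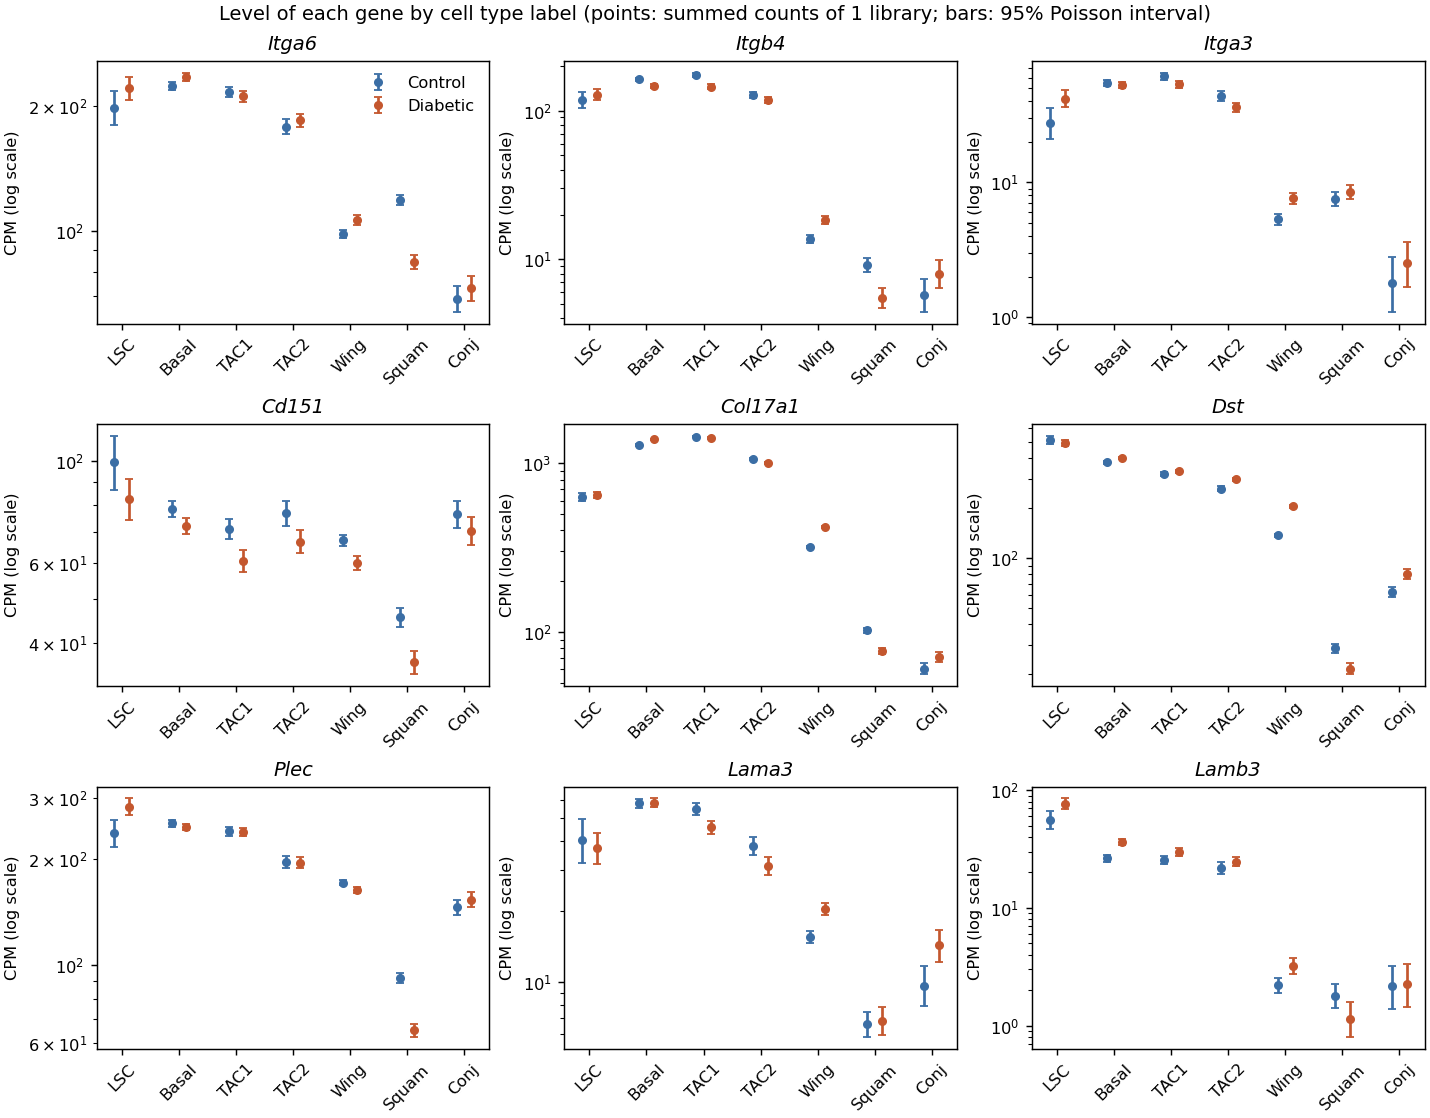
Level of each gene in each of 7 epithelial labels, as CPM on a log axis of its own range; each point is the summed counts of 1 library (blue control, orange diabetic) and each bar its exact 95% Poisson interval. Itgb4 dropped from 162 and 147 CPM in Basal to 13.6 and 18.5 in Wing, whereas Cd151 spanned only 2.17 and 2.27 times from its highest to its lowest label.

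Ratios of UMIs between partners within the same cells show these partings without any scaling between libraries. They compare detected UMIs, not molecules or protein. Itga6 gave 1.38 UMIs per Itgb4 UMI in control Basal and 1.60 in diabetic Basal, with 1.24 and 1.45 in TAC1, 1.39 and 1.56 in TAC2, and 1.67 and 1.71 in LSC. Wing had 7.23 and 5.77, Squam 13.0 and 15.4, and Conj 12.0 and 9.17. In Basal, TAC1 and TAC2 the ratio was thus higher in the diabetic library, with intervals apart in Basal (1.33 to 1.43 against 1.54 to 1.65) and TAC1 (1.19 to 1.30 against 1.39 to 1.52).

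Lama3 gave 0.721 UMIs per Lamb3 UMI in control LSC (0.542 to 0.957) and 0.487 in diabetic LSC (0.404 to 0.586). The ratio was 2.19 (2.01 to 2.38) and 1.61 (1.503 to 1.74) in Basal, 2.15 and 1.53 in TAC1, 1.74 and 1.26 in TAC2, and 7.10 and 6.35 in Wing. LSC was thus the label where Lamb3 outnumbered Lama3, and in each of LSC, Basal, TAC1 and TAC2 the ratio was lower in the diabetic library. The plakin pair Dst to Plec gave 2.15 and 1.74 in LSC, 1.48 and 1.61 in Basal, 0.795 (0.775 to 0.816) and 1.251 (1.22 to 1.29) in Wing, and 0.313 and 0.332 in Squam. Wing was the label where the plakin with more UMIs was Plec in control and Dst in diabetic cells.

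**Figure D2:**
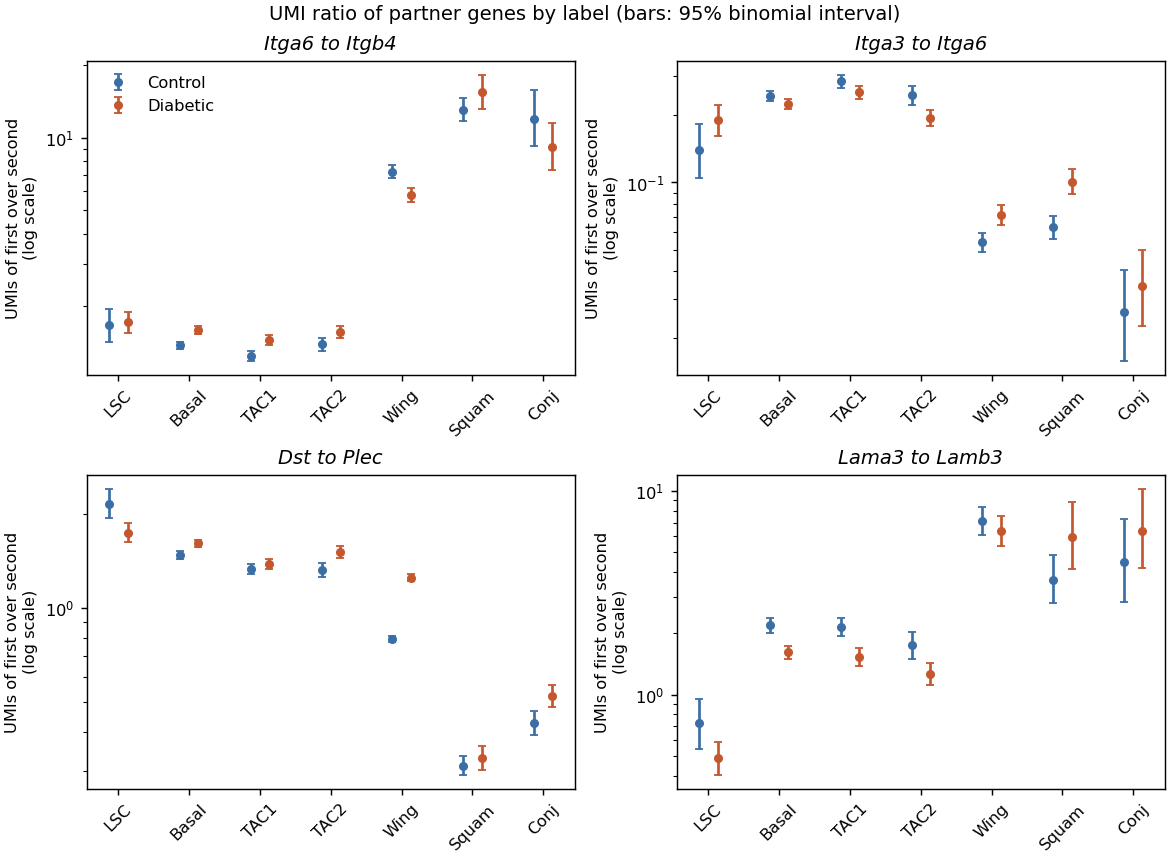
UMIs of the first gene divided by UMIs of the second in the same cells, for 4 pairs over 7 labels on log axes; points are libraries (blue control, orange diabetic) and bars exact 95% conditional binomial intervals. Itga6 to Itgb4 lay between 1.24 and 1.71 in LSC, Basal, TAC1 and TAC2 and at 5.77 or more in Wing, Squam and Conj.

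UMIs of the 9 genes in Immune cells were used to gauge a background under the low values. Whether they came from free RNA or from mixed droplets was not tested. The 26 control Immune cells, with a median of 2424 UMIs, had a UMI of Dst in 7 cells (26.9%), of Col17a1 and of Plec in 5 each (19.2%), of Cd151 in 4 (15.4%), of Itgb4 in 2 (7.69%, exact interval 0.946% to 25.1%), of Itga6 and of Lamb3 in 1 each (3.85%), and of Itga3 and Lama3 in 0 of 26, which allows a share of up to 11.5%. Among the 10 diabetic Immune cells Dst was seen in 3, and the other 8 genes in 0 of 10, which allows up to 30.0%. Squam cells had a far higher depth (medians of 22382 and 21047 UMIs), yet a UMI of Itgb4 was seen in 9.39% of control and 5.57% of diabetic ones, and of Lamb3 in 3.53% and 2.30%. Per cell that is 0.225 and 0.125 UMIs of Itgb4 in Squam, beside 0.192 in control Immune cells. Lamb3 had 0.0441 and 0.0260 UMIs per Squam cell beside 0.0385. Dst had 0.704 and 0.491 beside 0.538 in control and 0.300 in diabetic Immune cells, and a lower share of Squam cells (23.0% and 19.5%) than of Immune cells had a UMI of it. The Squam values of these 3 genes are read as background, and no difference of expression is drawn from them. This gauge is coarse, since the control Immune cells held 5 UMIs of Itgb4 and 1 of Lamb3. Their 28 UMIs of Col17a1 lay in 5 cells. Col17a1 was higher in Squam, at 2.51 and 1.75 UMIs per cell beside 1.08 in control and 0 in diabetic Immune cells. Its Squam level, 7.97% and 5.57% of Basal, nevertheless lay near that of Krt14, a keratin of basal cells, at 6.55% and 4.54%. Itga6 had 2.93 and 1.92 UMIs per Squam cell beside 0.0769 per control Immune cell. Itga6 (53.3% and 36.1% of Basal), Cd151 (58.1% and 50.5%) and Plec (36.1% and 26.4%) kept larger shares there. In Wing, Lamb3 had 0.0596 and 0.0866 UMIs per cell (8.29% and 8.95% of Basal). Itgb4 had 0.370 and 0.495 UMIs per cell there (8.40% and 12.6% of Basal). Itga3 stood at 9.73% and 14.4% of Basal in Wing, and Krt14 at 6.82% and 8.58%. Per cell, Itgb4 in Wing lay above the 0.192 of the much shallower control Immune cells, in which Itga3 was not seen. Whether the low Wing levels of these genes, Krt14 included, are background was not tested.

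After each cell was thinned to 5000 UMIs, so that depth was equal, Col17a1 was detected in 98.8% of control and 98.7% of diabetic Basal cells, Dst in 77.0% and 78.5%, Plec in 67.4% and 66.6%, Itga6 in 63.7% and 65.2%, and Itgb4 in 50.9% and 48.5%. Before thinning the Basal shares of Itga6 were 88.3% and 91.1%, and of Itgb4 76.2% and 78.0%. Nearly every Basal cell thus carried collagen XVII RNA at this depth. Of the thinned cells with an Itga6 UMI, 54.8% and 51.7% also had an Itgb4 UMI in Basal, 5.80% (4.46% to 7.41%) and 10.3% (8.1998% to 12.7%) in Wing, and 4.07% and 3.36% in Squam. So in Wing and Squam most cells in which Itga6 was detected had no detected β4 UMI. The thinning left out 486 control and 264 diabetic cells below 5000 UMIs.

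**Figure D3:**
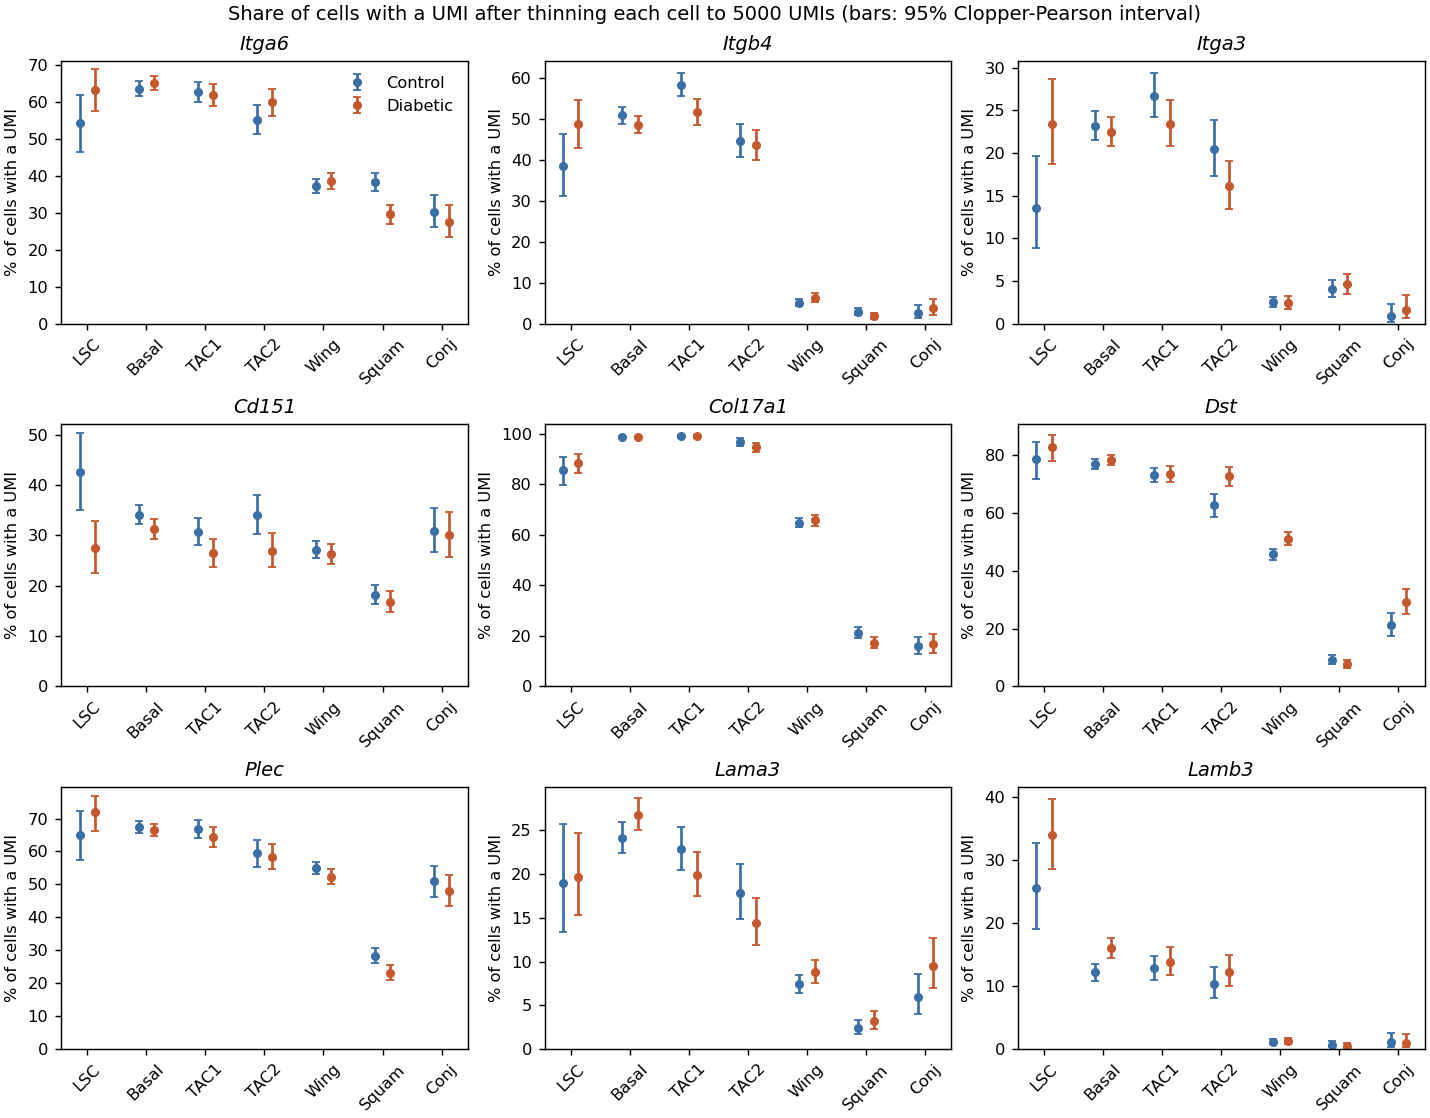
Percent of cells with at least 1 UMI of each gene after thinning to 5000 UMIs per cell, by label; points are libraries (blue control, orange diabetic), bars exact 95% Clopper-Pearson intervals, and each axis starts at 0. Col17a1 was seen in 98.8% and 98.7% of Basal cells, and Lamb3 in 12.1% and 15.96%.

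The main comparison of the study sets the diabetic library against the control one. A gene was called higher or lower where the CPM ratio was 1.5 or more either way, with at least 50 summed counts and Poisson intervals that did not overlap. Over all cells Lamb3 was the only one of the 9 genes called, at 10.4 CPM in control and 16.6 in diabetic cells; 5.98% of the 13846 genes tested were called higher and 2.8% lower, so 1 of 9 is near the background. At a lower threshold, a log2 ratio of 0.32, Dst passed as well, where 13.3% of genes were higher. The other 8 ratios ran from 0.903 (Cd151, 66.6 against 60.1 CPM) to 1.29 (Dst, 181 against 234 CPM). The makeup of the libraries moved with these sums: with the same label weights in both libraries, the log2 ratio of Lamb3 was 0.34 instead of 0.68, and those of Itga6, Itgb4 and Itga3 turned from 0.09, 0.16 and 0.21 to -0.01, -0.12 and -0.03. The comparison within each label therefore carries the description.

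Within Basal cells none of the 9 genes was called, where 2.63% of 11526 genes were called higher and 2.38% lower. Lamb3 came nearest, with 26.5 CPM in control and 36.1 in diabetic cells, a ratio of 1.36 (1.246 to 1.49). At the lower threshold Lamb3 passed alone, where 6.56% of genes were higher. The thinned share of Basal cells with a Lamb3 UMI was 12.1% (10.8% to 13.5%) in control and 15.96% (14.5% to 17.5%) in diabetic cells. Itgb4 was lower at a ratio of 0.905 (0.870 to 0.941) and Cd151 at 0.916, while Col17a1 (1.08), Dst (1.06) and Itga6 (1.05) were slightly higher, and the intervals of Itga3, Plec and Lama3 held 1. Among all genes tested in Basal, 20.7% had an interval above 1 and 21.6% one below. The median log2 ratio of the 9 genes in Basal was 0.01, as it was over all genes tested. In the label Basal 8 of the 9 RNAs thus lay between 0.905 and 1.08 times the control level. This range does not hold for LSC, TAC1 and TAC2, which also carried Itgb4 and are described next.

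The LSC label, with 202 control and 331 diabetic cells, had 1 call: Itga3 at 27.5 CPM in control and 41.9 in diabetic cells, from 60 and 193 counts, a ratio of 1.52 (1.13 to 2.07). The background was 2.63% of 8567 genes higher and 2.61% lower. Lamb3 (1.37, 1.11 to 1.70) and Plec (1.19, 1.08 to 1.32) also had intervals above 1, and Cd151 one below (0.833, 0.703 to 0.988), where 10.1% of genes had an interval above 1 and 10.9% one below. At the lower threshold Lamb3 joined Itga3, where 3.99% of genes were higher. Thinned, an Itga3 UMI was seen in 13.6% (8.83% to 19.7%) and 23.4% (18.7% to 28.6%) of LSC cells and a Cd151 UMI in 42.6% (35.0% to 50.4%) and 27.5% (22.4% to 32.9%). The LSC cells of the libraries differed in other respects too: the summed LSC markers were at 0.800 times control, the Wing markers at 0.624 times, TAC2 markers at 2.66 times, 3 corneal endothelium markers went from 1.84 to 60.8 CPM in sum, and Dcn, a stromal gene, from 13.3 to 23.7 CPM. Their part in the ratios was not tested.

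TAC1 and TAC2 had no call, against 1.7% higher and 1.52% lower of 11038 genes, and 2.21% higher and 1.35% lower of 10852 genes. The β4 and α3 subunits were slightly lower in these labels. Itgb4 was at 0.836 (0.796 to 0.878) times control in TAC1 and 0.922 in TAC2, and Itga3 at 0.874 and 0.821. Lama3 was likewise lower, at 0.834 in TAC1 and 0.820 (0.725 to 0.928) in TAC2, while Lamb3 was at 1.17 and 1.13 and Dst at 1.04 and 1.14. Of the 9 genes, 5 had an interval below 1 in each of these labels, with 2 above 1 in TAC1 (Dst and Lamb3) and 1 in TAC2 (Dst). Over all genes tested, 16.8% of intervals lay below 1 and 15.9% above in TAC1, and 14.3% below and 18.2% above in TAC2.

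In Wing cells 7 of the 9 genes had intervals above 1, 2 had intervals below 1 and none was called. Of 12080 genes tested, 31.2% had an interval above 1 and 23.2% one below, 3.93% were called higher and 2.59% lower. Dst missed the threshold by the smallest margin, with 137 CPM in control and 204 in diabetic cells, a ratio of 1.497 (1.46 to 1.54). Behind it came Lamb3 (1.47), Itga3 (1.43), Itgb4 (1.35), Lama3 (1.32), Col17a1 (1.31, from 319 to 419 CPM) and Itga6 (1.08), while Cd151 (0.894) and Plec (0.952) were lower. At the lower threshold 6 genes passed as higher, where 10.5% of genes did, and the median log2 ratio was 0.40 for the 9 genes and 0.04 for all genes tested. Of these 6, Lamb3, Itgb4 and Itga3 had the low Wing levels described above, and no difference of expression is drawn from them. After thinning, the log2 ratio of Itga3 went from 0.51 to -0.07 and that of Lamb3 from 0.56 to 0.06. That of Itgb4, 0.44, stayed between 0.30 and 0.46 over the 6 alternatives. The others of the 6 were Dst, Lama3 and Col17a1. Thinned, Dst was seen in 45.8% (43.9% to 47.6%) of control and 51.1% (48.9% to 53.4%) of diabetic Wing cells, with 1.69 and 1.97 UMIs per cell that had one. For Col17a1 the shares were 64.7% and 65.7%, and the UMIs per such cell 2.67 and 3.14.

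Markers of other labels moved with Wing as well. The 5 Basal markers were at 1.05 times control in sum (5 of 5 higher) and LSC markers at 1.14 times (5 of 5). TAC2 markers were at 1.91 times (5 of 5, from 15.1 to 29.0 CPM) and TAC1 markers at 1.06 times (4 of 5). Squam markers were at 1.13 times (2 of 5 higher) and Conj markers at 1.07 times (3 of 5). The Wing markers were at 0.903 times (2 of 5 higher). Krt14 rose in Wing from 34.4 to 52.3 CPM, a ratio of 1.52. Whether the makeup of the Wing label moved these ratios was not tested.

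Of the 6 genes not at background in Squam, 4 had an interval below 1 (Itga6, Cd151, Col17a1 and Plec) and none above. Among all 10313 genes tested there, 31.8% had an interval below 1 and 16.4% one above. Itgb4 was called lower, from 9.15 to 5.49 CPM, a ratio of 0.600 (0.497 to 0.723), where 7.75% of genes were called lower and 1.79% higher; Itgb4 is at the background there. Itga6 went from 119 to 84.6 CPM (0.711, 0.677 to 0.746), Plec from 91.6 to 65.2 CPM (0.711, 0.673 to 0.752), Cd151 from 45.6 to 36.4 CPM (0.797, 0.739 to 0.859) and Col17a1 from 102 to 77.2 CPM (0.757, 0.719 to 0.796). The thinned share of Squam cells with an Itga6 UMI was 38.3% (35.9% to 40.8%) in control and 29.6% (27.1% to 32.1%) in diabetic cells, and that with a Plec UMI 28.4% and 23.2%. At the lower threshold 6 genes passed as lower, where 15.3% of genes did, and 2 of the 6 (Itgb4 and Dst) are among those at background. The Squam markers themselves were at 1.39 times control in sum (3 of 5 higher), the Wing markers at 0.712 times and the Basal markers at 0.863 times (0 of 5 higher), and their part in these ratios was not tested.

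Conj had no call, with Itga3 and Lamb3 under the count minimum, against 2.52% of 9319 genes called higher and 1.95% lower. Lama3 (1.49, 1.16 to 1.92), Dst (1.29) and Col17a1 (1.17) had intervals above 1, where 18.1% of genes had one above and 14.9% one below, and Lama3 and Dst passed the lower threshold, where 6.37% of genes were higher. Across labels, Cd151 was the gene with 1 direction throughout: its ratio was below 1 in 7 of 7 labels, from 0.797 in Squam to 0.922 in Conj, and its interval was below 1 in 6 of them. Dst had an interval above 1 in 5 labels and Lamb3 in 4. Those of Dst include TAC1 (1.001 to 1.07), where the direction turned with equal weight for every cell. Those of Lamb3 include Wing, at the low level described above. How many of all genes tested keep 1 direction over the labels was not counted.

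**Figure D4:**
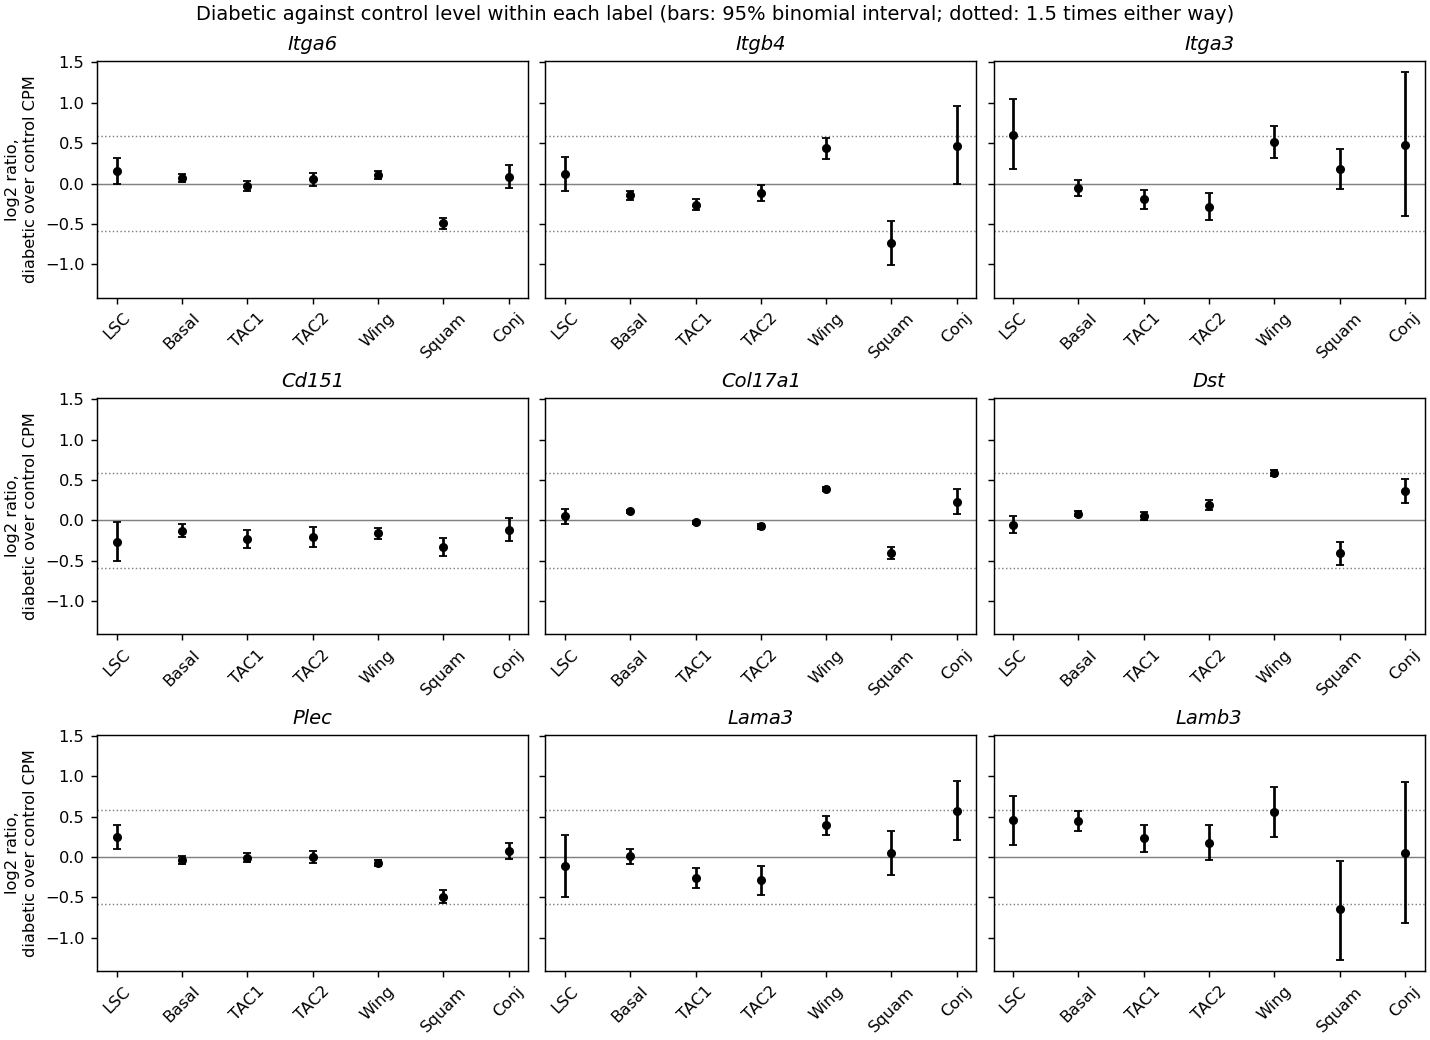
Log2 ratio of diabetic over control CPM within each of 7 labels for each gene, with exact 95% conditional binomial intervals; the solid line is no difference and the dotted lines 1.5 times either way. Most points lie between the dotted lines. Itga3 in LSC (1.52) and Itgb4 in Squam (0.600) lie outside them, the Squam ratio of Lamb3 (0.638) lies outside with overlapping Poisson intervals, and Dst in Wing (1.497) lies at the line.

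Further lists of related genes (7) were set beside these values, all called by the same rule in all cells. Over all 13846 genes tested, 5.98% were called higher and 2.8% lower, and the shares within each label are those given above. Among other laminin and basement membrane genes, 1 of 16 tested was higher and 3 were lower. Col18a1, which encodes collagen XVIII, was at 2.13 times control, Frem1 was 6.59-fold lower and Lamc3 2.02-fold lower, all at levels under 0.4 CPM. Fras1, which encodes an extracellular matrix protein of the basement membrane, went from 12.5 to 8.05 CPM (1.55-fold lower), and it was also called lower in Basal (20.2 to 12.4 CPM), Wing (13.8 to 8.09 CPM) and Squam (2.77 to 0.687 CPM). Hspg2, which encodes perlecan, was lower in TAC1 (4.55 to 2.48 CPM) and TAC2 (4.42 to 2.09 CPM). In the other direction, Col4a5 was called higher in TAC2 and Lama5 in Conj.

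Of 6 other integrin subunits tested, 1 was higher and 0 lower: Itga2, whose product pairs with β1 as a collagen and laminin receptor, at 5.54 and 9.76 CPM (1.76 times). Within TAC1, Itgb6 was called lower (7.75 to 4.41 CPM). The 5 other laminin receptors gave no call in all cells, but Bcam was higher in Wing (10.3 to 17.5 CPM, 1.70 times) and Conj (5.40 to 11.2 CPM, 2.07 times), and the syndecan Sdc1 lower in Squam (154 to 102 CPM). Among 6 tetraspanins, Cd63 was 2.11 times control (2.48 to 5.23 CPM) and Tspan8 1.82-fold lower (0.810 to 0.444 CPM). Within LSC, which held 514 of the 894 diabetic Cd63 counts and was a larger part of the diabetic library, Cd63 was at 0.908 times control. It was called higher in Basal, TAC1 and Conj, at 9.50 CPM or less. Of 10 genes in a list of other plakins, keratins and their partners, Krt14 was higher (249 to 447 CPM, 1.79 times). Within labels its ratio was smaller in LSC (1.32), Basal (1.21), TAC1 (1.21) and TAC2 (1.30), and below 1 in Squam (0.837). Krt14 was called higher in Wing (1.52) and Conj (2.35). The focal adhesion list had 1 of 12 higher, Actn1 (0.713 to 2.01 CPM, 2.82 times), and Tns4 was higher in Wing (54.8 to 87.9 CPM, 1.60 times). Of 8 genes for processing laminin or collagen XVII, Tll1 was 2.41-fold lower at under 0.3 CPM, and Timp3 was higher in LSC (79.9 to 122 CPM) and lower in Squam (3.08 to 1.24 CPM). The list medians of the log2 ratio ran from -0.20 for tetraspanins to 0.18 for laminin receptors, beside 0.07 over all genes tested.

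The genes whose profile over the 14 combinations of label and library was most like that of each member, by Pearson r of log2(CPM + 1) among 4933 genes, were Ftl1 (0.999), Cpe and Atic for Itgb4, Dkk3 (0.998) and Parva for Col17a1, Trp63 (0.995), Chd9 and Pdgfa for Dst, and Timp3 (0.992), Cav1 and Snai2 for Lamb3. For Itga6 they were Sparc (0.980), Spon2 and Wnt10a, for Itga3 Sparc (0.976), Cadm1 and Agrn, and for Lama3 Vasp (0.987) and Ccnd1. Plec came with Acads (0.992), Akr7a5 and Selenow, and Cd151 with Uqcrc1 (0.971), Grcc10 and Fxyd3. Among the 36 pairs of members, r ran from 0.31 (Itga3 with Cd151) to 0.97 (Itga6 with Itga3). The 14 points share 2 libraries and the clusters that define the labels, so these values describe likeness only.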

How the data were processed

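The authors deposited a matrix of raw UMI counts, whole numbers for each gene in each cell, with a table of the group and label of every cell. The group codes for control and streptozotocin cells were matched to the titles of the 2 samples through the labels. The submitters' processing notes name Cell Ranger 5.0.0, Seurat 4 and mm10 and give no role for any of them. How cells were filtered is not given in the sources used here. Counts were summed per label and library and expressed as CPM (pandas 2.3.3 and scipy 1.17.1 under Python 3.11.15). CPM has exact 95% Poisson intervals, ratios have exact conditional binomial intervals and shares have exact Clopper-Pearson intervals, and all of them cover counting error only. The totals were 196359192 UMIs in control and 171030636 in diabetic cells. A gene was tested with 50 or more summed counts over both libraries. Gene positions come from GENCODE M21 (GRCm38). No doublet caller was used; an alternative drops the 8% of cells with the most UMIs in each label and library. The members, the gene lists and the markers were chosen with earlier results of these data known. Named genes are the members, up to 2 genes per list and direction past the threshold with the largest ratios in all cells and 1 within a label, and the 3 genes most like each member among those with a mean of 20 CPM or more, without ribosomal protein genes and unnamed gene models. Fras1 in all cells was named after its value was seen. Not every gene that these rules name is reported here. Genes of the lists without a row (6) were not analysed here. Alternatives were median-of-ratios scaling, other count minimums (10 and 200), a threshold of 0.32 on the log2 ratio, equal weight for every cell, thinning to 5000 or 2500 UMIs, no cells over 10% mitochondrial counts, equal label weights, and, chosen after seeing the data, no shared barcodes.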

Additional observations from a re-analysis of the deposited data

Results flagged for a closer look

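All members but Cd151 (8 genes) had ratios of diabetic over control CPM that lay above 1 in at least one label and below 1 in another, with both counting intervals apart from 1. Only the pair of labels with the highest and the lowest such ratio is given, and with 1 library per group the difference between labels was not tested. The Wing ratio divided by the Squam ratio was 2.31 for Lamb3, 2.25 for Itgb4, 1.98 for Dst, 1.74 for Col17a1 and 1.52 for Itga6. Lamb3, Itgb4 and Dst stood at the background level in Squam. For Lamb3 and Dst, Squam was the only label with an interval below 1. For Itgb4, Wing was the only label with an interval above 1, and its Wing level was low, as described above. Without these values, the intervals of Lamb3, Dst and Itgb4 did not lie on both sides of 1. The share of all genes tested with intervals on both sides of 1 was not counted. Itga3 had an LSC ratio 1.85 times its TAC2 ratio, and Plec an LSC ratio 1.67 times its Squam ratio. For Lama3 the Conj ratio was 1.82 times the TAC2 ratio.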

How the results depend on the processing

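Of the 72 ratios of the 9 genes in all cells and 7 labels, 50 had an interval apart from 1. All 50 kept their direction with median-of-ratios scaling, without the 8% of cells with the most UMIs, without cells over 10% mitochondrial counts and without the 18 barcodes shared by both libraries. With equal weight for every cell 47 did (not Itgb4 in all cells, or Dst in TAC1 and Squam), and after thinning to 5000 UMIs 47 did (not Itgb4 in all cells and TAC2, or Itga3 in Wing). The Itga3 log2 ratio in Wing went from 0.51 to -0.07 when thinned, and the cause was not tested. With the same label weights, 5 of 8 in all cells did. The call of Lamb3 in all cells was lost (0 called higher) with equal cell weights, when thinned (log2 ratio 0.56) and with the same label weights. The call of Itga3 in LSC was lost (0) with equal cell weights, and that of Itgb4 in Squam (0 lower) when thinned. In Conj 1 gene was called higher without the cells with the most UMIs (Lama3), with equal cell weights (Lama3) and when thinned (Dst). At a threshold of 0.32 on the log2 ratio, 2 were higher in all cells, 2 in LSC, 1 in Basal, 6 in Wing and 2 in Conj, and 6 were lower in Squam. No paired analysis was possible because each group has 1 library. Depth limits the low values: Lamb3 in Wing rests on 173 and 171 counts.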
